A study of Homo sapiens with 15 samples.

Results

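The control libraries of the U937 line were compared with the control libraries of the HL-60 line, to describe how these human acute myeloid leukemia (AML) lines differed in RNA without knockdown of RNF5. RNF5 is an ubiquitin ligase of the endoplasmic reticulum membrane. All libraries labelled with the pLKO vector in these lines were taken, 2 of U937 and 3 of HL-60, which is 5 of the 15 libraries of the series. The remaining libraries came from MOLM-13 cells and from cells of the 3 lines carrying a short hairpin RNA against RNF5 (shRNF5). The U937 control cells and the HL-60 control cells both carried the empty lentiviral pLKO vector and no hairpin. The labels place the harvest at day 7 and the design text at day 5. Per the methods, U937 cells were grown in RPMI medium and HL-60 cells in IMDM, and the authors normalised and filtered each line apart from the others. Line, medium and processing run therefore cannot be told apart in any difference given here. Each line is derived from a single person, and no label says that the replicates came from separate cultures. The p-values therefore measure the spread between these libraries only.

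HL-60 is a promyelocytic line, known for an amplified MYC gene. U937 is a monocytic line that carries a PICALM-MLLT10 fusion, and such fusions are known for high expression of the later HOXA genes. Promyelocytes make the enzymes of the primary (azurophil) granules, whereas monocytes and macrophages are known for lysosomal hydrolases, integrins and receptors for antibodies and complement.

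Each value below is the normalised read count of a gene in a library, rescaled so that all genes of the library sum to 1000000 (a scaled count). These values are not divided by gene length, so they compare a gene between libraries and do not rank genes within a library. The step between neighbouring low values put the depth behind them at 13400000 to 20500000 counted reads in the 5 libraries. Differences are given as U937 minus HL-60 on the log2(scaled count + 1) scale, with the standard error (SE) and the Benjamini-Hochberg adjusted p of limma over all genes tested. This scale understates the fold of genes near 0. Across the genes tested, the 3 HL-60 libraries correlated with each other at a Pearson r between 0.986 and 0.992, the 2 U937 libraries at 0.962, and libraries of different lines between 0.774 and 0.827. The U937 libraries thus stood further apart, with 7.52% of genes differing by more than 2-fold between them against at most 1.51% between any pair of HL-60 libraries. Which of the U937 libraries was higher followed transcript length (Spearman rho 0.294 for replicate 2 minus replicate 3, over 11280 genes of known length), while the difference between the lines did so only weakly (rho -0.044).

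The lines differed at a large share of their genes. Of 11518 genes that the authors kept in both lines, 4139 were called different (35.9%) at an adjusted p under 0.05 and an absolute log2 difference over 1. U937 had the higher level for 2581 of them (22.4% of the genes tested) and HL-60 for 1558 (13.5%). At 4136 of the 4139 called genes, all libraries of a line lay above all libraries of the other, which held for 73.7% of the genes tested. A further 1647 genes were at 0 in every HL-60 library because they had been filtered there, and 1052 genes were at 0 in every U937 library for the same reason. The median difference over all genes tested was 0.12, and median-of-ratios scaling lowered this median by 0.12. The split of the calls changed to 2289 higher in U937 and 1884 higher in HL-60. No call named below changed direction under that scaling, while the number called among 205 genes followed went from 180 to 177.

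**Figure D1:**
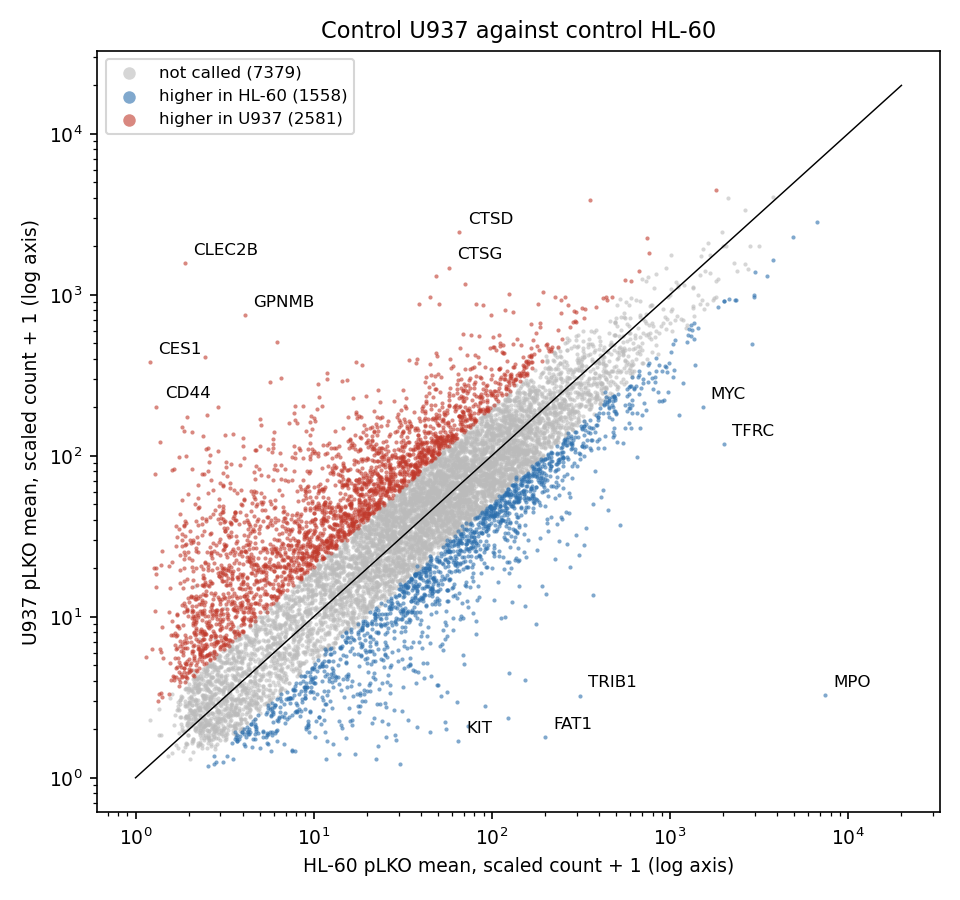
Mean level of each of the 11518 genes kept in both lines, in HL-60 pLKO (3 libraries, horizontal) and U937 pLKO (2 libraries, vertical), in scaled counts plus 1 on log axes. Colored points are the 2581 genes called higher in U937 and the 1558 called higher in HL-60, and the line marks equal levels. MPO lies furthest to the HL-60 side and CLEC2B furthest to the U937 side.

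The cells carrying shRNF5 gave another set of libraries for the same pair of lines, 2 of U937 and 3 of HL-60. These libraries shared the medium, normalisation and gene filter of their line with the controls. In them 2932 of the 11518 genes were called (25.5%), 1896 of them higher in U937 (16.5%) and 1036 in HL-60 (8.99%), and 2019 of these were also called in the control cells with the same direction, which is 48.8% of the control calls and 68.9% of the shRNF5 calls. Only 22 genes were called in opposite directions. The difference kept its sign in the shRNF5 cells for 3740 of the 4139 genes called in the controls (90.4%), with the RNF5 hairpin as a further change between these sets of libraries.

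MPO, the peroxidase of primary granules, showed the largest difference of all named genes. Its levels were 2.55 and 1.998 scaled counts in the U937 libraries and 7878, 7952 and 6496 in the HL-60 libraries, a log2 difference of -11.15 (SE 0.17, limma adjusted p = 9.51e-10). The gene lies on chromosome 17 of GRCh37 from 56347216 to 56358296. In the shRNF5 libraries the difference was -11.25. With shRNF5 the U937 libraries were at 2.001 and 5.93 scaled counts.

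Other primary granule genes were split, with CTSG, AZU1 and ELANE higher in U937 and PRTN3 higher in HL-60, as MPO was. CTSG, encoding the protease cathepsin G, was at 1824 and 1130.3 scaled counts in U937 and 65.4, 65.9 and 37.6 in HL-60 (log2 difference 4.69, SE 0.28, limma adjusted p = 2.51e-06). AZU1, PRTN3 and ELANE lie side by side on the forward strand of chromosome 19 of GRCh37, from 825097 to 832018, 840999 to 848175 and 851014 to 856247, and they encode azurocidin, proteinase 3 and neutrophil elastase. AZU1 was at 759.7 and 845 in U937 and 132, 119.6 and 103 in HL-60, and ELANE at 556 and 696 and 251, 324 and 249.8. Both were higher in U937, by 2.76 and 1.19 on the log2 scale (SE 0.17 and 0.19; limma adjusted p = 2.95e-06 and 0.000543). PRTN3, between them, went the other way, with 99.1 and 221 in U937 and 666, 656 and 453 in HL-60 (log2 difference -1.97, SE 0.31, limma adjusted p = 0.000543). None of these 5 genes had overlapping libraries between the lines, as was so for 73.7% of all genes tested.

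The U937 excess of AZU1 and ELANE was not seen in the shRNF5 cells. There the difference was -0.75 for AZU1, -1.63 for ELANE, 1.51 for CTSG and -4.19 for PRTN3. The change of the line difference between constructs was tested by an interaction term in the fit of 10 libraries, which 1979 of the 11518 genes passed at the same thresholds (17.2%; 10.1% with the more positive difference in the controls and 7.13% with the more negative). Its limma adjusted p was 0.000774, 0.000603, 0.00153 and 0.00437 in the same order. The interaction for MPO gave 0.881. In U937, AZU1 was at 99.999 and 202 scaled counts with shRNF5, and in HL-60 at 276, 148 and 337.

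The granulocyte precursor list of 15 genes had 11 tested, of which 5 were higher in U937, 3 higher in HL-60 and 3 not called, around a median of 0.01 that turned below 0 with median-of-ratios scaling. Calls thus made up 72.7% of the list, beside 35.9% over all genes tested. CEBPE, a transcription factor of granule formation, was at 24.5 and 17.04 scaled counts in U937 and 116, 117 and 129 in HL-60 (log2 difference -2.50, limma adjusted p = 8.72e-06). The eosinophil ribonucleases RNASE2 and RNASE3, close paralogs whose reads may be shared, were called higher in U937 by 1.69 and 4.18 (limma adjusted p = 0.0192 and 4.39e-05). RNASE2 rested on U937 replicate 3, with 27.01 and 122 scaled counts in the U937 libraries, and fell to 0.62 without that library, and its call was also lost without HL-60 replicate 2 (1.65). BPI, PRG2 and CLC were kept in HL-60 only, and DEFA4 in neither line.

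**Figure D2:**
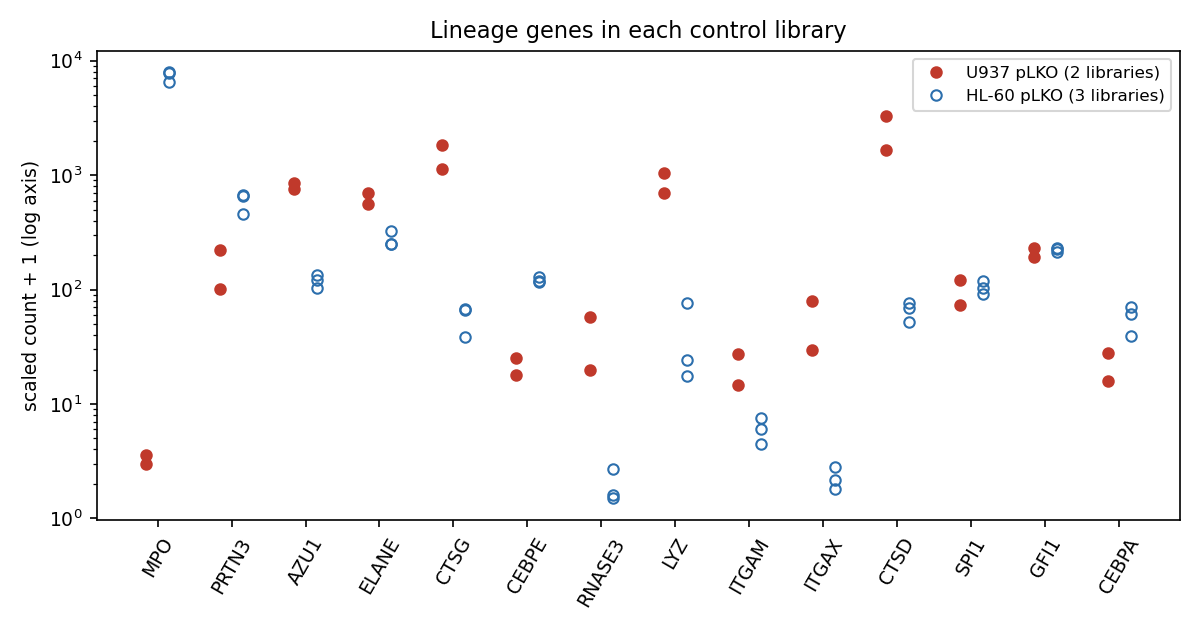
Level of 14 lineage genes in each control library, in scaled counts plus 1 on a log axis. Filled points are the 2 U937 libraries and open points the 3 HL-60 libraries. MPO, PRTN3, CEBPE and CEBPA are higher in HL-60, the other granule genes shown are higher in U937, and the libraries of SPI1 and GFI1 overlap.

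Of the 15 monocyte and macrophage markers, 7 could be tested, and 4 were higher in U937, 2 higher in HL-60 and 1 not called. Over all genes tested, 22.4% were higher in U937 and 13.5% higher in HL-60. LYZ, encoding lysozyme, was at 701 and 1043 scaled counts in U937 and 75.1, 22.996 and 16.6 in HL-60 (log2 difference 4.75, SE 0.51, limma adjusted p = 5e-05). ITGAX, the CD11c integrin, was at 78.96 and 28.9 and 1.81, 1.16 and 0.7999 (4.46, adjusted p = 1.7e-05), and ITGAM, the CD11b integrin, at 26.6 and 13.6 and 6.57, 3.48 and 5.05 (1.77, adjusted p = 0.00131). CST3, encoding the protease inhibitor cystatin C, was higher in U937 by 2.61 in the control cells and differed by -0.02 in the shRNF5 cells (interaction, limma adjusted p = 0.00111).

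Some monocyte markers lay on the HL-60 side or were not measured. FCGR1A, the high affinity IgG receptor with a close copy in FCGR1B, was at 4.49 and 2.06 in U937 and 16.6, 14.3 and 13.05 in HL-60 (-1.93, limma adjusted p = 0.000353), and the costimulatory CD86 was at 1.15 and 0.874 and 9.38, 7.08 and 7.88 (-2.17, adjusted p = 7.18e-05). CSF1R, FCN1, CD163 and KLF4 were kept in U937 only, at low levels, with CSF1R at 2.73 and 1.06 scaled counts. CD14, CD68 and MRC1 were listed at 0 in both lines. The CD68 gene overlaps other annotated transcripts on its strand, and whether that affected its count was not tested.

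Markers of other cell types were near 0. Of 28 markers of T and NK cells, B cells, erythroid cells, megakaryocytes and stromal or epithelial cells, 22 were listed at 0 in both lines and 4, among them PAX5, KLF1 and COL1A1, were kept in U937 only. NKG7, a cytotoxic granule membrane protein, was the exception with 153 and 215 scaled counts in U937 and 3.44, 9.94 and 6.95 in HL-60 (log2 difference 4.65, limma adjusted p = 6.84e-06). CD79A, of the B cell receptor, was at 0.789 and 5.18 and 1.38, 2.07 and 2.09 and was not called.

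Transcription factors were called in both directions, beside 22.4% higher in U937 and 13.5% higher in HL-60 over all genes. Among 28 tested myeloid factors, 9 were higher in U937 and 6 in HL-60, and 13 were not called, among them SPI1 and GFI1, which act in both the granulocytic and the monocytic lineage. SPI1, encoding PU.1, was at 119 and 71.9 scaled counts in U937 and 101, 119 and 89.96 in HL-60 (limma adjusted p = 0.599), and GFI1 at 192 and 229 and 212, 223 and 228 (adjusted p = 0.715). Both sets of libraries overlapped.

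IRF8, a factor of monocyte and dendritic cell fate, was kept in U937 only, at 129.6 and 169.8 scaled counts. KLF6, CEBPB and IRF5 were higher in U937 by 2.57, 2.48 and 2.44 (limma adjusted p = 2.49e-05, 6.99e-05 and 4e-05). ETS1 was among the 15 largest U937 differences, with 91.8 and 104 against 1.001, 0.793 and 0.492 scaled counts (5.82, limma adjusted p = 4.02e-07). On the HL-60 side, GATA2, a factor of early progenitors, was at 8.13 and 6.37 in U937 and 49.5, 62.04 and 45.5 in HL-60 (-2.69, limma adjusted p = 1.07e-05). CEBPA, the main factor of granulocytic commitment, was higher in HL-60, with a difference of -1.39 (limma adjusted p = 0.00344) and lost the call without U937 replicate 3, at -0.98.

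The HOXA cluster differed most at its later genes. HOXA9 was at 397 and 298 scaled counts in U937 and listed at 0 in HL-60, and its cofactor gene MEIS1 at 366 and 351 in U937 and 0 in HL-60. HOXA10 was at 342 and 312 and 9.51, 11.7 and 11.4 (log2 difference 4.79, SE 0.18, limma adjusted p = 3.06e-07), HOXA11 at 107 and 65.5 and 11.8, 16.8 and 12.2 (2.55, adjusted p = 3.55e-05), and HOXA13 at 239 and 198 and 24.5, 27.1 and 30.6 (2.95, adjusted p = 2.79e-06). Of the earlier genes of the cluster, HOXA7, named for its position after its values were seen, was not called, at 7.16 and 4.43 in U937 and 8.44, 10.5 and 8.61 in HL-60 (-0.61, limma adjusted p = 0.0651). HOXA5 was called higher in U937 (1.31, limma adjusted p = 0.00415) but not without U937 replicate 2 (0.93).

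HOXB genes were filtered in both lines. Of the 25 HOX, MEIS and PBX genes listed, 10 were tested, 5 were higher in U937, MEIS2 was higher in HL-60 (-1.28), 6 were kept in U937 only and 9 in neither line. Among those tested 60% were called, beside 35.9% over all genes. The 6 called became 3 without U937 replicate 2, where MEIS2 was at -0.96 and lost its call. The differences of HOXA5, HOXA10, HOXA11 and HOXA13 were smaller with shRNF5, at 0.69, 3.65, 1.55 and 1.84. HOXA4 changed sign. It was called higher in U937 in the controls (1.22, limma adjusted p = 0.0293), at 8.07 and 2.25 scaled counts against 0.81, 1.65 and 1.66 in HL-60. With shRNF5 it differed by -0.82 (limma adjusted p = 0.0295). Leaving out single libraries moved its control difference between 0.47 and 1.96.

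MYC, the growth-promoting transcription factor amplified in HL-60, was at 122 and 278 scaled counts in U937 and 1352, 1811 and 1416 in HL-60 (log2 difference -3.03, SE 0.31, limma adjusted p = 3.75e-05). The difference was -2.44 without U937 replicate 2 and -3.62 without replicate 3, and it was -1.38 in the shRNF5 cells. MAX, the binding partner of MYC, was not called, at 142 and 102 in U937 and 62.3, 68.5 and 57.2 in HL-60.

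Genes of ribosome biogenesis and the MYC network lay mostly on the HL-60 side. Of 33 tested, 13 were higher in HL-60 and 1, MXD3, higher in U937, with a median of -0.95 beside 0.12 over all genes. In this list 42.4% were called, beside 35.9% over all genes. POLR1A, the large subunit of RNA polymerase I, was at 28.3 and 53.6 in U937 and 295, 194 and 246 in HL-60 (-2.60, limma adjusted p = 4.58e-05). ODC1, of polyamine synthesis, was at 98.3 and 197 and 701, 678 and 646 (-2.27, adjusted p = 7.57e-05). The number called in this list, 14, depended on the U937 libraries, with 9 without U937 replicate 2 and 23 without U937 replicate 3. In the shRNF5 cells 5 were higher in HL-60 and 1 in U937, around a median of -0.17.

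Of 33 replication and mitosis genes, 8 were higher in HL-60 and 1 (AURKB) in U937, which is 27.3% called beside 35.9% over all genes, and the D and E type cyclins led the HL-60 side. CCND1 was at 1.46 and 0.562 in U937 and 56.3, 53.7 and 52.8 in HL-60 (-4.82, limma adjusted p = 1.17e-06), and CCND2 at 45.5 and 23.8 and 300.5, 325 and 382 (-3.30, adjusted p = 8.14e-06). CCNE1 differed by -2.49 in the controls (limma adjusted p = 0.000217) and -0.23 in the shRNF5 cells. CCNA1, a cyclin of germ cells and myeloid leukemias, went the other way, with 136 and 162 scaled counts in U937 and 1.25, 0.488 and 0.738 in HL-60 (6.38, limma adjusted p = 3.6e-07).

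Of 24 tested CDK inhibitors and DNA damage response genes, 12 were higher in U937 and 2 in HL-60, with a median of 1.12. In this list 58.3% were called, beside 35.9% over all genes. CDKN2A, encoding p16INK4A and p14ARF, was at 85.5 and 93.8 scaled counts in U937 and 15.3, 13.7 and 11.7 in HL-60 (2.65, SE 0.20, limma adjusted p = 6.63e-06). CDKN1A, encoding p21, was low in both, at 12.2 and 7.18 and 0.7505, 0.427 and 0.431 (2.76, adjusted p = 4.56e-05). CDKN2D was at 23.5 and 21.1 and 3.82, 4.15 and 3.63 (2.26, adjusted p = 2.8e-05). The death receptor gene TNFRSF10B was higher in U937 by 2.99.

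Antiapoptotic genes differed in both directions. BCL2A1 was at 185 and 82.3 scaled counts in U937 and 2.13, 2.26 and 2.15 in HL-60 (5.29, SE 0.32, limma adjusted p = 2.38e-06). MCL1 was at 237 and 200.1 in U937 and 961, 841 and 904 in HL-60 (-2.04, adjusted p = 1.17e-05), and BCL2 at 51.3 and 55.7 and 168, 134 and 200.4 (-1.61, adjusted p = 0.000113). BCL2L1, encoding BCL-XL, was higher in U937 by 1.76, as were the death-promoting BBC3 by 3.34 and BCL2L11 by 1.12. Of 14 tested members of the family, 4 were higher in U937, 2 in HL-60 and 8 not called. That was 42.9% called, beside 35.9% over all genes.

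Among lists with at least 7 tested genes, lysosomal proteases had the highest median. Of 23 tested, 17 were higher in U937, 1 was higher in HL-60 and 5 were not called, with a median of 1.88. The called share was 78.3%, beside 35.9% over all genes. CTSD, encoding cathepsin D, was at 3280.3 and 1641 scaled counts in U937 and 75.99, 67.5 and 51.4 in HL-60 (5.16, SE 0.28, limma adjusted p = 1.63e-06). CTSZ was at 346 and 252 and 10.3, 11.9 and 10.7 (4.63, adjusted p = 4.73e-07), and SERPINB1, an inhibitor of the granule proteases, at 325 and 440.4 and 23.95, 13.97 and 10.8 (4.53, adjusted p = 3.62e-06). CTSS was the member on the HL-60 side (-1.57, limma adjusted p = 0.00027). The 17 and 1 became 14 and 3 in the shRNF5 cells, where CTSD differed by 2.79, CTSZ by 2.08 and SERPINB1 by 2.14.

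Adhesion molecules lay on the same side, with 11 of 20 higher in U937, ITGB7 higher in HL-60, and a median of 1.21. The share called was 60%, beside 35.9% over all genes. The ITGB7 difference of -1.02 lost its call without U937 replicate 2 (-0.79) and without HL-60 replicate 1 (-0.93). CD44, the hyaluronan receptor, was at 215 and 187 scaled counts in U937 and 0.438, 0.122 and 0.369 in HL-60 (7.27, SE 0.23, limma adjusted p = 1.19e-07). ITGA6 was at 476 and 320.3 and 43.1, 29.7 and 38.8 (3.37, adjusted p = 3.95e-06), and ITGB2, the common chain of the leukocyte integrins, at 989 and 569.8 and 112, 156 and 126 (2.52, adjusted p = 3.01e-05). SELPLG was not called, at 87.9 and 37.02 in U937 and 56.7, 73.6 and 61.96 in HL-60.

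**Figure D3:**
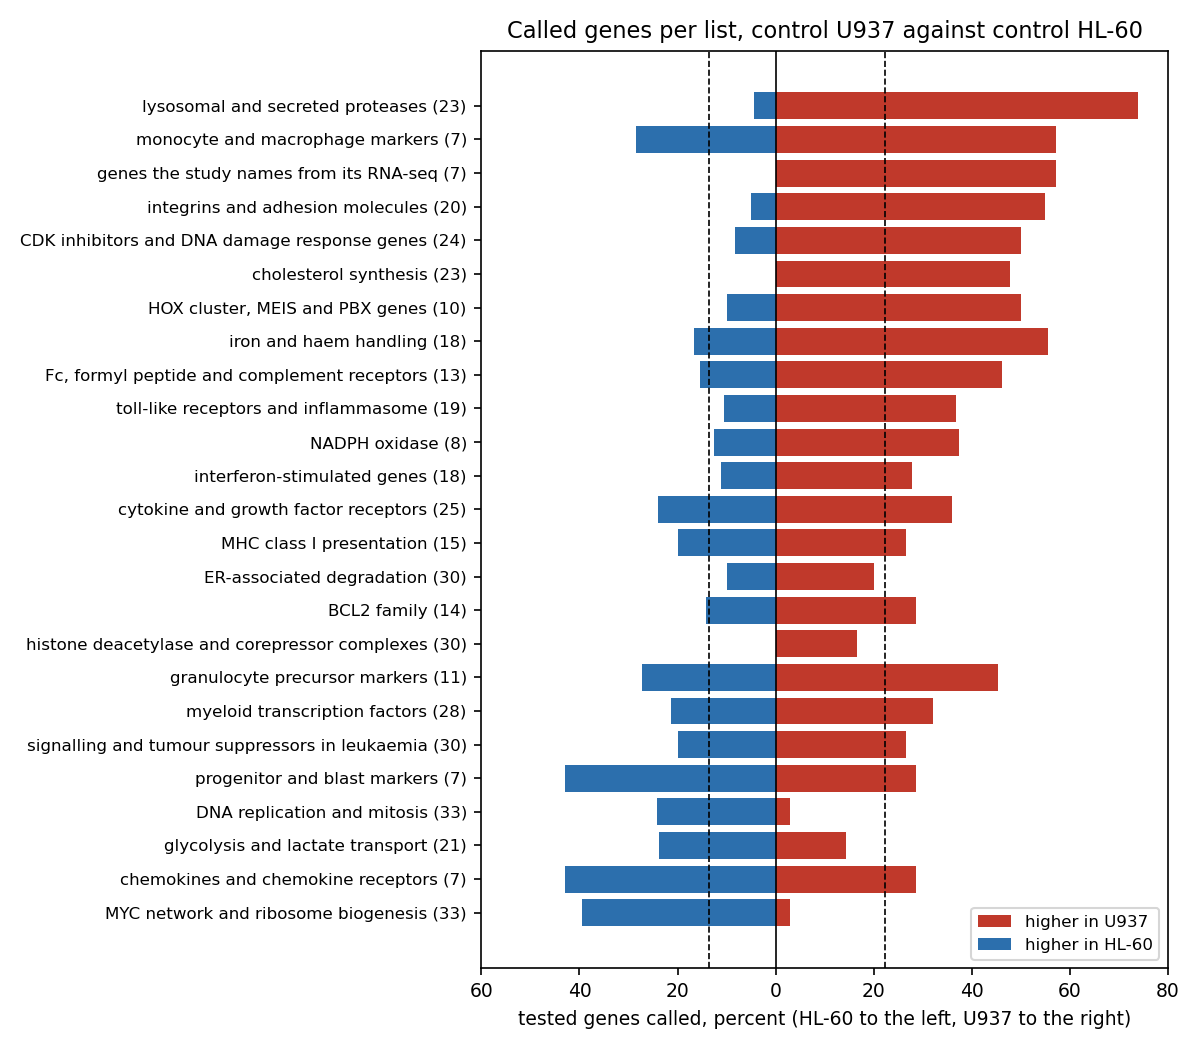
Share of the tested genes of each list called higher in U937 (right) or higher in HL-60 (left), in percent, for lists with at least 7 tested genes, ordered by their median log2 difference. Dashed lines mark the shares over all genes tested, 22.4% and 13.5%, and numbers give the genes tested. Lysosomal proteases reach furthest to the right and the MYC list to the left among the lists of over 20 genes.

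Receptors for growth factors were called in both directions, with 9 of 25 tested higher in U937 and 6 higher in HL-60. The shares over all genes were 22.4% and 13.5%. KIT, the stem cell factor receptor, was at 0.303 and 1.06 scaled counts in U937 and 47.3, 72.8 and 70.8 in HL-60 (-5.28, SE 0.28, limma adjusted p = 1.51e-06), and FLT3 at 5.89 and 5.06 and 25.4, 43.2 and 33.97 (-2.41, adjusted p = 4.47e-05). IL4R was at 131 and 61.4 in U937 and 8.01, 7.87 and 7.14 in HL-60 (3.39, adjusted p = 1.61e-05). The chains of the GM-CSF receptor differed in opposite directions, CSF2RA by 1.96 and CSF2RB by -1.32 (limma adjusted p = 0.000615 and 0.000309). CSF3R was at 114 and 89.5 and 46.4, 51.9 and 54.3, short of the log2 threshold at 0.98. Of 7 tested progenitor and blast markers, 2 were higher in U937 and 3 in HL-60, CD33 was not called, and CD34 was filtered in both lines.

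Chemokines and their receptors were mostly filtered, with 7 of 22 tested, 2 of them higher in U937 and 3 in HL-60. Over all genes these shares were 22.4% and 13.5%. CXCR4 was at 489 and 359 scaled counts in U937 and 68.4, 71.9 and 74.3 in HL-60 (2.53, limma adjusted p = 5.35e-06) and differed by 2.32 with shRNF5. CCL2 was at 4.55 and 12.05 in U937 and 32.9, 62.4 and 65.7 in HL-60 (-2.62, adjusted p = 0.000367), but with shRNF5 at 104 and 102 in U937 and 8.34, 29.2 and 9.18 in HL-60 (2.87, adjusted p = 1.91e-05). IL8, encoding the neutrophil attractant CXCL8, also changed sign between the constructs, from -1.55 to 1.96 (interaction, limma adjusted p = 0.0015; 0.000638 for CCL2).

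Of 13 tested Fc, formyl peptide and complement receptors, 6 were higher in U937 and 2 in HL-60, beside 22.4% and 13.5% over all genes. FCGRT, the neonatal Fc receptor, was at 149 and 128 scaled counts in U937 and 1.31, 0.976 and 0.923 in HL-60 (6.08, limma adjusted p = 2.35e-07), and CR1 was higher in U937 by 3.41. Among 19 tested innate sensing genes, 7 were higher in U937 and 2 in HL-60, beside the same shares over all genes. TLR1, TLR3 and TLR6 were kept in HL-60 only, and LY96 and AIM2 in U937 only. GSDMD, the pore protein of pyroptosis, was at 219 and 181 and 1.001, 1.77 and 2.89 (6.17, limma adjusted p = 8.01e-07), and NLRP3 at 67.1 and 31.3 and 5.38, 3.17 and 2.83 (3.33, adjusted p = 4.44e-05). CASP1 and TRAF6 were higher in HL-60, by -1.56 and -2.18 on the signed scale (limma adjusted p = 0.000958 and 1.85e-05). TLR2 and TLR4 did not pass the log2 threshold, at 0.84 and -0.72.

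The subunits of the phagocyte NADPH oxidase differed in both directions, with 3 of 8 higher in U937 and 1 in HL-60. Over all genes tested the shares were 22.4% and 13.5%. CYBB, its catalytic gp91phox subunit, was at 3.702 and 3.25 scaled counts in U937 and 162, 97.96 and 113 in HL-60 (-4.77, SE 0.24, limma adjusted p = 1.1e-06). The cytosolic subunit NCF4 was higher in U937 by 1.16 (limma adjusted p = 0.00066). NCF1, whose reads may be shared with near-identical copies, was at 1.46 and 1.69 and 4.75, 2.44 and 2.52 (adjusted p = 0.0746).

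MHC class I presentation genes differed in both directions, with 4 of 15 tested higher in U937 and 3 in HL-60, beside 22.4% and 13.5% over all genes. HLA-C, a classical class I gene, was at 834 and 477 scaled counts in U937 and 124, 195 and 174 in HL-60 (1.96, limma adjusted p = 0.000213), although reads of such polymorphic genes may map unequally between lines, which was not tested. The class I light chain B2M was not called, at 1629 and 2205 and 1321, 1540.4 and 1751 (limma adjusted p = 0.23). ERAP2, a peptide-trimming enzyme, was on the HL-60 side at 13.2 and 12.7 and 185, 188 and 229 (-3.85, adjusted p = 6.8e-07). HLA-DRA and 5 further class II genes were filtered in both lines, and of the 6 class II genes tested, 2 were higher in U937 and 3 in HL-60. These 5 calls became 2 without U937 replicate 2 and 3 without HL-60 replicate 1.

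Of 18 tested interferon-stimulated genes, 5 were higher in U937 and 2 in HL-60, which is 38.9% called beside 35.9% over all genes. MX2 was at 112 and 107 scaled counts in U937 and 1.44, 1.403 and 1.66 in HL-60 (5.47, limma adjusted p = 3.21e-07) and BST2 at 132 and 195 and 6.57, 12.7 and 8.06 (4.05, adjusted p = 4.96e-06), while IFIT3 differed by -1.13, a call lost without U937 replicate 3 (-0.94). STAT2 was higher in U937 by 2.06 in the controls and differed by -0.04 in the shRNF5 cells (interaction, limma adjusted p = 0.000892).

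Of 23 tested cholesterol synthesis genes, 11 were called higher in U937 by limma and 12 were not called, beside 22.4% higher in U937 over all genes, with 0 called in the other direction (2 lay on the HL-60 side at an unadjusted p under 0.05), and a median of 1.102. MVD was at 178 and 136 scaled counts in U937 and 17.95, 24.8 and 21.7 in HL-60 (2.81, SE 0.21, limma adjusted p = 6.47e-06), and FDFT1 at 1056 and 881 and 196, 252 and 233 (2.09, adjusted p = 1.48e-05). With shRNF5 the list had 1 gene higher in U937 and 3 higher in HL-60, around a median of 0.24, and the differences were 0.56 for MVD and 0.72 for FDFT1.

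Iron and haem genes included the strongly HL-60-sided transferrin receptor. TFRC was at 84.97 and 148 scaled counts in U937 and 2156, 1556 and 2334 in HL-60 (-4.13, SE 0.26, limma adjusted p = 3.19e-06), and the ferritin receptor gene NCOA4 differed by -1.37. Among the genes higher in U937, BLVRA was at 80.1 and 73.4 and 1.25, 2.99 and 2.03 (4.69, limma adjusted p = 2.05e-06) and BLVRB at 74.7 and 64.7 and 5.88, 8.36 and 5.35 (3.25, adjusted p = 5.64e-06). In all, 10 of 18 tested genes were higher in U937 and 3 in HL-60, beside 22.4% and 13.5% over all genes.

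Of 21 tested genes of glycolysis and lactate transport, 3 were higher in U937, 5 in HL-60 and 13 not called. That was 38.1% called, beside 35.9% over all genes. Hexokinase 1 (HK1) was at 165 and 106 scaled counts in U937 and 3.06, 1.403 and 3.08 in HL-60 (5.29, limma adjusted p = 1.91e-06), and the glucose transporter gene SLC2A3 was higher in U937 by 3.08. SLC2A1, the related transporter, differed by -1.39, GAPDH by -1.23 and the muscle phosphofructokinase PFKM by -2.72 (limma adjusted p = 0.000246, 0.000788 and 1.54e-05). In the shRNF5 cells SLC2A1 differed by 0.33 and GAPDH by -0.39.

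Signalling genes named in leukemia were called in both directions, 8 of 30 higher in U937 and 6 in HL-60, beside the same 22.4% and 13.5%. STAT5A was at 156 and 95.9 scaled counts in U937 and 3.002, 6.04 and 5.72 in HL-60 (4.42, limma adjusted p = 4.79e-06), and IDH1 at 634 and 483 and 76.6, 75.9 and 75.3 (2.85, adjusted p = 2.51e-06). TET2 was at 20.1 and 18.98 and 117, 64.6 and 95.1 (-2.14, adjusted p = 7.7e-05), and NPM1 was higher in HL-60 with -1.42. NRAS was not called, at 166 and 219.8 and 201, 172 and 202.

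RNF5 was not called different between the control lines. Its levels were 39.3 and 52.6 scaled counts in U937 and 31.6, 42.03 and 33.5 in HL-60, which overlapped, with a log2 difference of 0.35 (SE 0.21, limma adjusted p = 0.175). Its paralog RNF185 was at 13.8 and 15.4 and 21.6, 21.9 and 22.2 (-0.56, adjusted p = 0.0317), short of the log2 threshold. Of 30 genes of ER-associated degradation, the pathway in which RNF5 acts, 6 were higher in U937, 3 higher in HL-60 and 21 not called, shares near the 22.4% and 13.5% over all genes. ERLIN1 was at 673 and 595 in U937 and 192, 180.2 and 182 in HL-60 (1.77, limma adjusted p = 1.76e-05) and EDEM2 at 138 and 83.5 and 21.6, 23.9 and 23.1 (2.18, adjusted p = 4.44e-05).

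Most histone deacetylases and their corepressors, which the study followed in relation to RNF5, were not called. Of 30 tested, 5 were higher in U937 and 0 in HL-60 by limma (8 lay on the HL-60 side at an unadjusted p under 0.05), with a median of 0.06 that was below 0 with median-of-ratios scaling. Calls made up 16.7% of this list, beside 35.9% over all genes. HDAC1 was at 194 and 169.8 scaled counts in U937 and 174, 198 and 179 in HL-60 (limma adjusted p = 0.944), and RBBP4, a histone-binding subunit of several of these complexes, at 378 and 439 and 434, 419 and 429 (adjusted p = 0.727). HDAC6, a cytoplasmic deacetylase, was at 198 and 142 and 36.5, 37.9 and 40.4 (2.11, adjusted p = 1.9e-05), and differed by 0.39 with shRNF5. LIMK1, an actin-regulating kinase, was at 46.1 and 42.2 and 13.6, 13.7 and 11.9 (1.68, adjusted p = 8.04e-05). It is among 7 genes that the study singled out from its RNA-seq, of which 4 were higher in U937 and 0 in HL-60 by limma (3 lay on the HL-60 side at an unadjusted p under 0.05), a list chosen on libraries of this series and so not independent of them.

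The largest differences outside these lists included membrane and secreted proteins. CLEC2B, a lectin-like receptor ligand, was at 1782 and 1349 scaled counts in U937 and 1.13, 0.488 and 1.05 in HL-60 (9.70, SE 0.23, limma adjusted p = 2.63e-08). CES1, a carboxylesterase known from monocytes and liver, was at 449 and 312 and 0.563, 0 and 0.0615 (8.31, adjusted p = 1.61e-07), ANXA2 at 399 and 421 and 2.001, 1.28 and 1.11 (7.40, adjusted p = 1.16e-07), and GPNMB, a glycoprotein of macrophages, at 1086 and 409 and 4.44, 2.38 and 2.58 (7.37, adjusted p = 1.26e-06). HOMER3, CKAP4, LAMP5, CERCAM, CECR1 and CLU completed the 15 largest U937 differences with the genes named above, between 5.89 and 6.49 on the log2 scale. CERCAM differed by 6.23 in the controls and 2.08 in the shRNF5 cells.

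On the HL-60 side, FAT1, an atypical cadherin, was at 1.27 and 0.312 scaled counts in U937 and 249.6, 137 and 211 in HL-60 (-6.81, SE 0.31, limma adjusted p = 6.62e-07). TRIB1, a pseudokinase that directs degradation of C/EBP alpha, was at 2.73 and 1.75 and 271, 356 and 310.3 (-6.60, adjusted p = 1.19e-07). PRAME, a cancer-testis antigen, was at 0.0607 and 3.496 and 78.9, 98.8 and 95.1 (-5.39, adjusted p = 1.83e-05). CREB5, NDFIP2, CHD7, SESN3, SDCBP, EFNB2, GPR27 and GAPT were the others of the 15 largest, between -5.71 and -4.50.

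Genes kept in a single line carry no fold and were not tested. Of the 1647 genes kept in U937 only, 1044 were protein-coding and 274 of these had a mean over 10 scaled counts. The highest were GPR124 (an adhesion receptor) at 748 and 439, CD93 (a myeloid and endothelial surface protein) at 487 and 484, and MEIS1 and HOXA9 as given above. SLC26A9, BEX1, IL32, LTBP4, IRF8 and HS3ST2 followed, with means between 145 and 329. Of the 1052 genes kept in HL-60 only, 654 were protein-coding and 223 had a mean over 10 scaled counts. YBX3, an RNA-binding protein, was at 405, 501 and 444 in HL-60, and IGF2BP1, an RNA-binding protein of fetal tissues, at 377, 284 and 335. SEPT11, COL23A1, BLMH, DSG2, CA2, LAPTM4B, FBN2 and SLC38A5 had means between 136 and 181. All of these were listed at 0 in every library of the other line.

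The differences were unequal between chromosomes. Genes on chromosome 8 were shifted to U937 as a block, with a median log2 difference of 1.17 over 358 genes, 58.7% of them called higher in U937 and 3.91% higher in HL-60, beside 22.4% and 13.5% over all genes. In the shRNF5 libraries, which the control comparison did not use, the median on chromosome 8 was 1.19. In windows of 5 Mb with at least 15 tested genes, all 9 windows of chromosome 8 had medians between 1.11 and 1.71. Against the 3 MOLM-13 control libraries, the median over the 354 chromosome 8 genes kept in all 3 lines was -1.30 in HL-60 and -0.17 in U937, beside 0.0006 and 0.08 over all 11072 such genes. These levels were set across tables that the authors normalised separately. Among these 3 lines, HL-60 lay furthest from the others on chromosome 8. Whether HL-60 was low or the other lines were high was not tested. DNA copy number was not measured in these files.

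Several of the genes highest in HL-60 lay on the same chromosome 8. MYC and TRIB1 were higher in HL-60 as given above, and so were CHD7, with 1.58 and 0.624 scaled counts in U937 and 87.9, 62.2 and 67.4 in HL-60, and SDCBP, with 1.700 and 0.749 and 54.1, 51.6 and 56.2. In all, 14 chromosome 8 genes were called higher in HL-60. TRIB1 and MYC lie on chromosome 8 of GRCh37 from 126442600 to 126450645 and 128747680 to 128755197. The genes around them, named for their position after their values were seen, did not follow one direction. SQLE, of cholesterol synthesis, was at 415 and 273 in U937 and 99.9, 107 and 118 in HL-60 (1.63, limma adjusted p = 0.000126), NSMCE2 was higher in U937 by 1.33 and PVT1, the long noncoding RNA next to MYC, by 1.098 (limma adjusted p = 0.000464 and 0.00223). KIAA0196, between SQLE and NSMCE2, was not called, at 64.2 and 69.3 in U937 and 42.1, 35.3 and 41.3 in HL-60. FAM84B, between TRIB1 and MYC, and CASC11, a noncoding RNA that overlaps MYC on the opposite strand, were kept in HL-60 only, at 3.31, 3.599 and 6.34 and at 3.31, 2.07 and 1.48 scaled counts.

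Chromosome 5 was shifted to HL-60, with a median of -0.52 over 503 genes in the controls and -0.55 in the shRNF5 cells, 30.4% called higher in HL-60 and 7.56% higher in U937. The remaining chromosomes had medians between -0.33 (chromosome 22) and 0.55 (chromosome 15). Chromosomes 15 and X followed chromosome 8 on the U937 side, with medians of 0.55 and 0.54 in the controls and 0.56 and 0.49 with shRNF5.

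**Figure D4:**
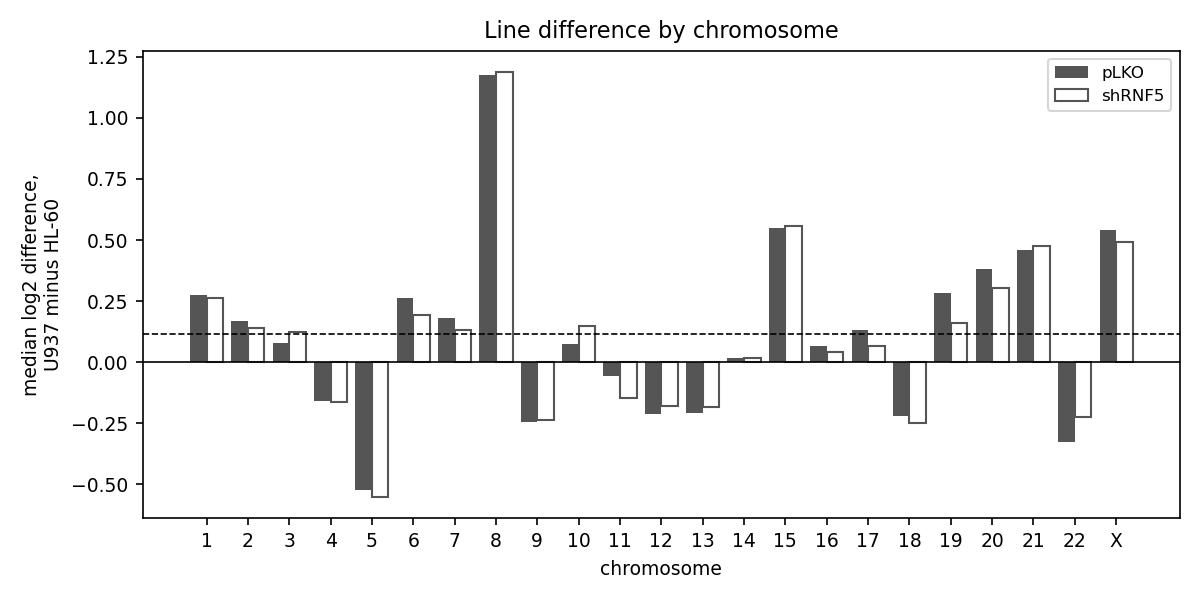
Median log2 difference, U937 minus HL-60, over the tested genes of each chromosome, in the control cells (filled bars, 2 and 3 libraries) and in the shRNF5 cells (open bars, 2 and 3 other libraries), with 0 marked. Chromosome 8 stands at 1.17 and 1.19, chromosome 5 at -0.52 and -0.55, and the dashed line marks the median over all genes in the controls, 0.12.

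**Figure D5:**
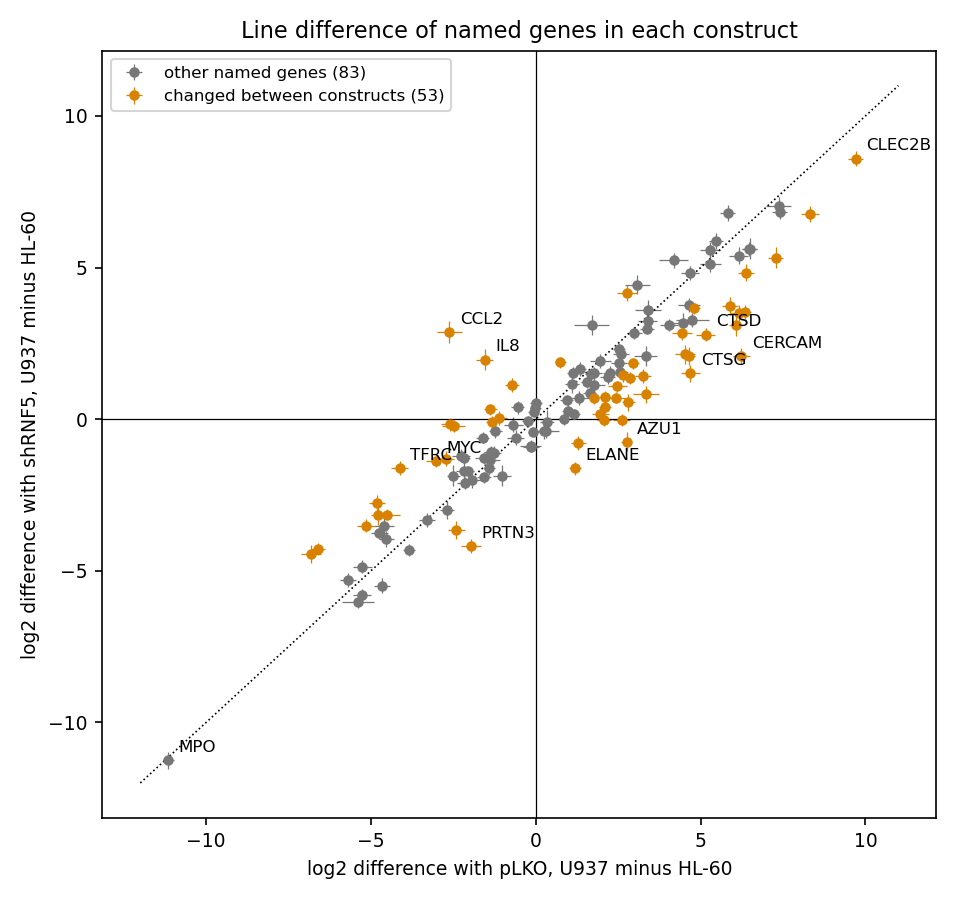
Log2 difference between U937 and HL-60 of the named genes, in control cells (horizontal) and in shRNF5 cells (vertical), with error bars of 1 SE and a line at equality. Orange points are genes whose line difference changed between the constructs by the interaction test (adjusted p under 0.05 and a change over 1). AZU1, ELANE, CCL2 and IL8 lie in quadrants of opposite sign, and MPO lies on the line.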

How the data were processed

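RNA-seq libraries of control U937 and HL-60 cells were grouped by the line and construct of their labels. Per the labels the kit was a 3′ mRNA kit, whereas the methods describe a directional poly(A) kit, and which was used is not settled here. The submitters' processing notes name hg19, featureCounts from Subread, and edgeR. The values are a score, deposited as normalised read counts that the authors scaled within each line and rounded to whole numbers, with genes of low counts set to 0 in a whole line. They are not raw counts, so limma 3.58.1 (R 4.3.3) was used in place of a count model. Repeated gene IDs were dropped, each library was rescaled to a sum of 1000000, and log2(value + 1) was fitted over the 11518 genes above 0 in both lines, with a mean-variance trend. Positions and gene types came from GENCODE on GRCh37, joined by gene ID. Depth limits the precision of genes near 0, and estimated depths carry rounding error.

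A gene was called at a Benjamini-Hochberg adjusted p under 0.05 and an absolute log2 difference over 1. The shRNF5 libraries were fitted alike, and the interaction in a fit of 10 libraries. The comparison, its members and all gene lists were chosen with earlier results of these data known. Genes are named where they are RNF5, core genes of a list, up to 4 further called members of a list in each direction, the 15 largest called protein-coding differences in each direction without overlap, or the 10 highest protein-coding genes kept in a single line. Genes on the Y chromosome, XIST and clone-named genes are not named, and some genes this rule names are not reported here. The other members of lists and the genes named for their position were added after their values were seen. The alternatives were other pseudocounts, scalings, filters, thresholds and fits, a replicate block, a transcript length correction and leaving out each library. The call procedure was tested on simulated data. Sequences were not analysed here, and the MOLM-13 libraries were used for chromosome medians and in 1 alternative fit over all 15 libraries.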

Additional observations from a re-analysis of the deposited data

Results flagged for a closer look

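The difference between the lines was not the same with both constructs. An interaction term compared the U937 minus HL-60 difference of the control cells with that of the shRNF5 cells, and 1979 of 11518 genes passed (17.2%) at a limma adjusted p under 0.05 and a change over 1 on the log2 scale, 1158 of them with the more positive difference in the controls and 821 with the more negative. Leaving out U937 shRNF5 replicate 1 lowered the number to 1111. The values below are the change for the genes described in the report that passed, and for CDKN2B, as the control difference minus the shRNF5 difference.

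Of the granule genes, 4 moved towards U937 in the controls, by 3.51 for AZU1, 3.19 for CTSG, 2.81 for ELANE and 2.22 for PRTN3. MPO was not among the genes that passed. Lysosomal and secreted proteins moved the same way, with 2.37 for CTSD, 2.55 for CTSZ, 2.63 for CST3, 2.39 for SERPINB1, 2.17 for CLU and 2.82 for LAMP5. Of the homeobox genes, HOXA4 changed by 2.03, HOXA10 by 1.13 and HOXA13 by 1.105. Surface and receptor genes changed by 2.96 for FCGRT, 4.15 for CERCAM, 1.94 for CD44, 1.11 for CLEC2B, 1.78 for HLA-C and 1.25 for FLT3.

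The change was 2.68 for GSDMD, 2.09 for STAT2, 1.74 for IRF5, 1.39 for CEBPB and 1.58 for STAT5A. Metabolic and other genes on this side were MVD (2.26), FDFT1 (1.37), IDH1 (1.49), BLVRB (1.83), CES1 (1.54), HDAC6 (1.71) and ERLIN1 (1.08). Cell cycle and death genes were CDKN2A (1.20), CDKN2B (1.45), CCNA1 (1.55), BBC3 (2.53) and MXD3 (2.07).

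In the other direction, the chemokine genes changed by -5.49 for CCL2 and -3.51 for IL8. Growth genes changed by -1.65 for MYC, -2.43 for POLR1A, -2.04 for CCND1, -2.26 for CCNE1, -2.52 for TFRC, -1.72 for SLC2A1 and -1.41 for PFKM. The remaining genes were FAT1 (-2.36), TRIB1 (-2.32), CHD7 (-1.64), CYBB (-1.62), GAPT (-1.35), TLR4 (-1.85), CDKN1A (-1.40), CSF2RB (-1.23), IFIT3 (-1.17) and KIAA0196 (-1.13). The hairpin and any difference between the control and shRNF5 cultures other than the hairpin cannot be told apart in these values.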

How the results depend on the processing

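The number of genes called between the control lines, 4139, stayed within 1.5 times of itself under every alternative except the wider thresholds. With genes kept in either line it was 6491 (4014 higher in U937 and 2477 in HL-60), since genes listed at 0 then count as different, and with a log2 threshold of 0.4 it was 6907 (3975 and 2932). Leaving out each library in turn gave 3830 to 4718 calls, with 2544 to 2735 higher in U937 and 1286 to 1983 higher in HL-60, and the extremes came from leaving out a U937 library. Median-of-ratios scaling gave 2289 and 1884. Of 205 genes followed, 163 had the same direction and call under every alternative. A pseudocount of 5 scaled counts lost 17 calls. The reversals were all of genes that were not called: HDAC1 was 0.0125 with library weights, and with transcript length correction GFI1 was 0.005, NRAS 0.0629 and RBBP4 0.12. Without single libraries the values ranged from -0.20 to 0.0537 for GFI1, -0.11 to 0.0813 for HDAC1, -0.16 to 0.56 for IL6R, -0.21 to 0.20 for NRAS, -0.18 to 0.0385 for RBBP4, -0.77 to 0.46 for SELPLG, -0.51 to 0.21 for SPI1 and -0.66 to 1.13 for CD79A. The chromosome medians, an alternative set chosen after seeing the data, stayed between 1.01 and 1.23 on chromosome 8 and between -0.65 and -0.42 on chromosome 5.

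Deviations of same-numbered libraries of the lines from their group means correlated at -0.123 and -0.177 in the controls. With shRNF5 the correlations were 0.082 and 0.001, over 2 shared numbers in each construct. The deviations of 2 U937 libraries mirror each other, so this check cannot show whether the replicate numbers paired the libraries. Pairing of control and shRNF5 libraries within a line was not checked. A replicate block gave 4153 calls in the controls and 2949 in the shRNF5 cells, turned NRAS to 0.0319, and lowered the interaction to 1086 genes (623 and 463). Leaving out single libraries moved the interaction between 1111 and 2806 genes (624 to 1430 in the positive and 487 to 1376 in the negative direction), so its number depends on single libraries, while the shRNF5 comparison gave 2850 to 3084.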

Other observations

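Outside chromosome 8, single regions were shifted as blocks in both sets of libraries. Of 278 windows of 5 Mb with at least 15 tested genes, the lowest median was -1.23, over 21 genes on chromosome 2 of GRCh37 from 240000001 to 245000000, and it was -1.21 with shRNF5. On chromosome 6 from 35000001 to 40000000, the 31 tested genes had medians of 1.30 and 1.29. Around CDKN2A on chromosome 9, CDKN2B was at 10.4 and 8.87 scaled counts in U937 and 1.56, 1.71 and 0.985 in HL-60, whereas the neighbouring MTAP was at 54.1 and 89.7 and 92.8, 75.9 and 86.7. CDKN2A and CDKN2B were called (limma adjusted p = 6.63e-06 and 0.000103) and MTAP was not (0.307). These windows and neighbours were picked after their values were seen.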
